A study of Homo sapiens with 18 samples.

Results

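Plasma cell regulators and markers are 10 genes that mark or drive the last step of the B cell lineage, in which a B cell becomes an antibody-secreting plasma cell. They were taken by name, and no measured value entered that rule, though earlier results of these data were known when they were chosen. All 10 had a row in each of the 3 tables, out of 17561 genes measured in the series. The series asked what happens in Burkitt lymphoma, a MYC-driven B cell cancer, when the transcription factor FOXO3 is depleted. Messenger RNA, enriched with oligo-dT, was sequenced from 18 libraries of the cell lines BL-41, Namalwa and Jiyoye, each grown from a patient's tumour. In each line, 3 libraries came from cells transduced with a lentivirus expressing FOXO3 shRNA and 3 from cells that received a scrambled shRNA in the same vector. A short hairpin RNA (shRNA) is cut in the cell into a small RNA that lowers the transcripts it matches. All groups share the lentiviral vector, pRSI12-U6-shUbiC-TagRFP, and the sort of infected cells on day 4. The hairpin sequence is not given in the sources used here. Namalwa and Jiyoye carry Epstein-Barr virus and BL-41 does not, so a difference between BL-41 and the others cannot be told apart from other differences between the lines. The libraries are called triplicates and are not said to be separate cultures, so each p-value sets a change against the scatter of its 6 libraries alone, and that scatter may be technical.

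A plasma cell arises when IRF4 and PRDM1 (BLIMP-1) shut down the B cell programme and XBP1 enlarges the endoplasmic reticulum (ER), where antibody is folded and assembled. JCHAIN, MZB1 and TXNDC5 serve that assembly, and TNFRSF17 (BCMA), CD38 and SLAMF7 are surface proteins by which plasma cells are recognised. PIM2 is a kinase that supports survival. Burkitt lymphoma resembles the germinal centre B cell, a stage before that step. FOXO transcription factors are held outside the nucleus by AKT and bind forkhead sites when that brake is released.

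Of the members, 3 carried near a start site a match to a motif of a factor that acts in this programme (XBP1, the ER stress factor ATF6, or IRF4 with its ETS partners), and those promoters are shown for that reason. RefSeq promoters (GRCh38.p14, 250 bases before to 50 after the start site) matched 8 of the 10 members, and TNFRSF17 and SLAMF7 were not matched. Both strands were searched for 5 motifs, namely the forkhead core GTAAACA, the ETS-IRF composite (GGAA and GAAA 2 bases apart), the tandem repeat (GAAA and GAAA 2 bases apart), the ER stress element (CCAAT and CCACG 9 bases apart) and the XBP1 core GACGTGG. The capitals mark the ER stress element in a promoter of XBP1 (chr22:28800520-28800819, minus strand). They also mark the ETS-IRF composite in the promoter of CD38 (chr4:15778078-15778377, plus strand) and the XBP1 core in a promoter of TXNDC5 (chr6:7910028-7910327, minus strand). XBP1 and TXNDC5 each had another promoter in the search, with no match. The composite and the tandem repeat share their second word, GAAA, and can overlap. The sequences shown run 5′ to 3′ on the gene's strand.
XBP1: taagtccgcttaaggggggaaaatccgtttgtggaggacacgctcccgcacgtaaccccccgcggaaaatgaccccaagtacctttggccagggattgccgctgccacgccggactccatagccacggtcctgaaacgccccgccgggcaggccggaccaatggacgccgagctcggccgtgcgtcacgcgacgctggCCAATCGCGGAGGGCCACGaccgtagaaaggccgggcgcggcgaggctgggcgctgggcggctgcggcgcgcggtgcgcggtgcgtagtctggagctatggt
CD38: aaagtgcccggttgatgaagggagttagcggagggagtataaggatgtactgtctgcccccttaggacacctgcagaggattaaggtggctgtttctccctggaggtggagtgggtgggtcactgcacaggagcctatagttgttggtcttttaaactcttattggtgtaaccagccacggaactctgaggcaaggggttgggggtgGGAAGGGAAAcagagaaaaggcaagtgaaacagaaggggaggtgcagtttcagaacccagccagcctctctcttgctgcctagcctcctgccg
TXNDC5: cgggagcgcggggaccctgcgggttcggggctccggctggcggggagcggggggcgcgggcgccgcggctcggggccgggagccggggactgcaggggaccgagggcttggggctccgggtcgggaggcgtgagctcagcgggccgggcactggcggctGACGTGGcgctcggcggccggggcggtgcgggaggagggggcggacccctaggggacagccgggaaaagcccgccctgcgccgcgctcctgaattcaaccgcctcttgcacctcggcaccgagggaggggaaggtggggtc
The ER stress element occurred in 0.0769% of 35116 promoters of the same length, the ETS-IRF composite in 2.82% and the XBP1 core in 3.13%. The forkhead core, in 3.42% of promoters, and the tandem repeat, in 3.57%, had no match in the promoters of the members. A match describes letters in this window and is not evidence of binding.

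The FOXO3 transcript was checked first. FOXO3 stood in the authors' deposited table at 544.7 with FOXO3 shRNA and 944.5 with scrambled shRNA in BL-41 (log2 fold change -0.79, adjusted p = 3.15e-07, DESeq2). The deposited values of the authors for Namalwa were 398.4 with FOXO3 shRNA and 850.5 with scrambled shRNA (-1.09, adjusted p = 2.49e-09, DESeq2). For Jiyoye the authors' deposited table gave 384.0 with FOXO3 shRNA and 471.2 with scrambled shRNA (-0.30, adjusted p = 0.187, DESeq2), so the value was lower there too but was not called. The tables hold 1 normalized value per arm and none per library, so no SD between libraries can be given. The error given for a fold change is the standard error (SE) that its deposited p implies. Summed arm values ran from 17065800.0 to 18459700.0. The B cell genes PAX5 and CD79A were expressed in every arm, from 4185 to 10048 and from 1432 to 18059.8 in the authors' deposited tables. Other B cell markers were low in some lines. MS4A1 had 149.6 with FOXO3 shRNA and 124.0 with scrambled shRNA in Namalwa, and CR2 at most 34.2 in BL-41 and Namalwa (authors' deposited tables). SDC1, the surface protein CD138 that defines mature plasma cells, stood between 1.40 and 75.0 in the authors' deposited tables. Summed length-scaled values of markers of T cells, NK cells and erythroid cells were at most 8.22, 5.04 and 0.829, on a scale where all genes of an arm sum to 1000000.

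Most of these genes were lower after FOXO3 shRNA, and PIM2 alone of the 10 was called lower in every line. In BL-41, 6 of the 10 members fell (XBP1, JCHAIN, MZB1, TNFRSF17, CD38 and PIM2), 1 rose (IRF4) and 3 were not called at an adjusted p under 0.05, the threshold used throughout. In Namalwa, 5 fell (IRF4, MZB1, TNFRSF17, CD38 and PIM2) and 5 were not called. In Jiyoye, 5 fell (IRF4, XBP1, TXNDC5, SLAMF7 and PIM2) and 5 were not called. Over all genes tested, the authors' DESeq2 test called 28.7% for BL-41, 6.41% for Namalwa and 17.4% for Jiyoye. Those that fell made up 14.2% of genes for BL-41, 3.81% for Namalwa and 8.7% for Jiyoye, and those that rose 14.5%, 2.6% and 8.69%. Well-expressed genes are called more often, and among genes averaging 100 or more over the arms of a line, adjusted again over those genes, which takes in 9, 9 and 10 of the members in BL-41, Namalwa and Jiyoye, 43.9%, 11.2% and 29.1% were called. Among the 10 members, 9 had a fold change below 0 in each line. The median log2 fold change of the members was -0.79 for BL-41, -0.44 for Namalwa and -0.39 for Jiyoye, beside 0.02, -0.0011 and 0.0084 over all genes tested. The member above 0 was IRF4 for BL-41, XBP1 for Namalwa and CD38 for Jiyoye, and of these IRF4 alone was called.

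**Figure D1:**
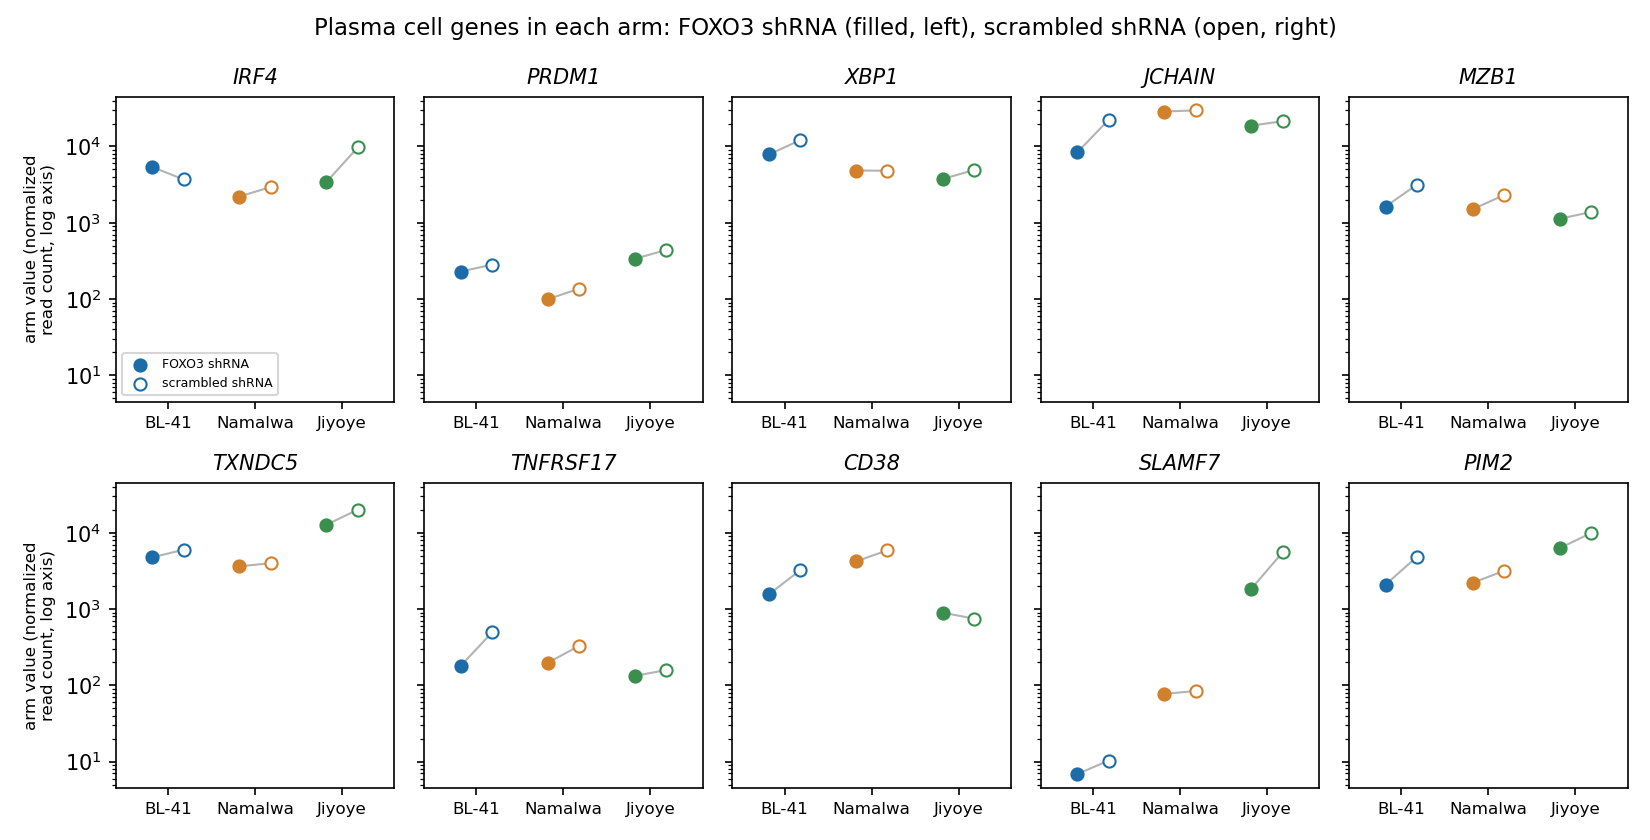
Deposited arm value of each of the 10 genes (axis labelled normalized read count, log axis) in BL-41, Namalwa and Jiyoye, with FOXO3 shRNA as the filled point on the left and scrambled shRNA as the open point on the right. Each point is the authors' value for an arm, with no value per library. The ratio of the arms is the deposited fold change, so a point may differ from the mean count of its arm. SLAMF7 spans from 6.87 in BL-41 with FOXO3 shRNA to 5556 in Jiyoye with scrambled shRNA, while JCHAIN is high in every arm.

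**Figure D2:**
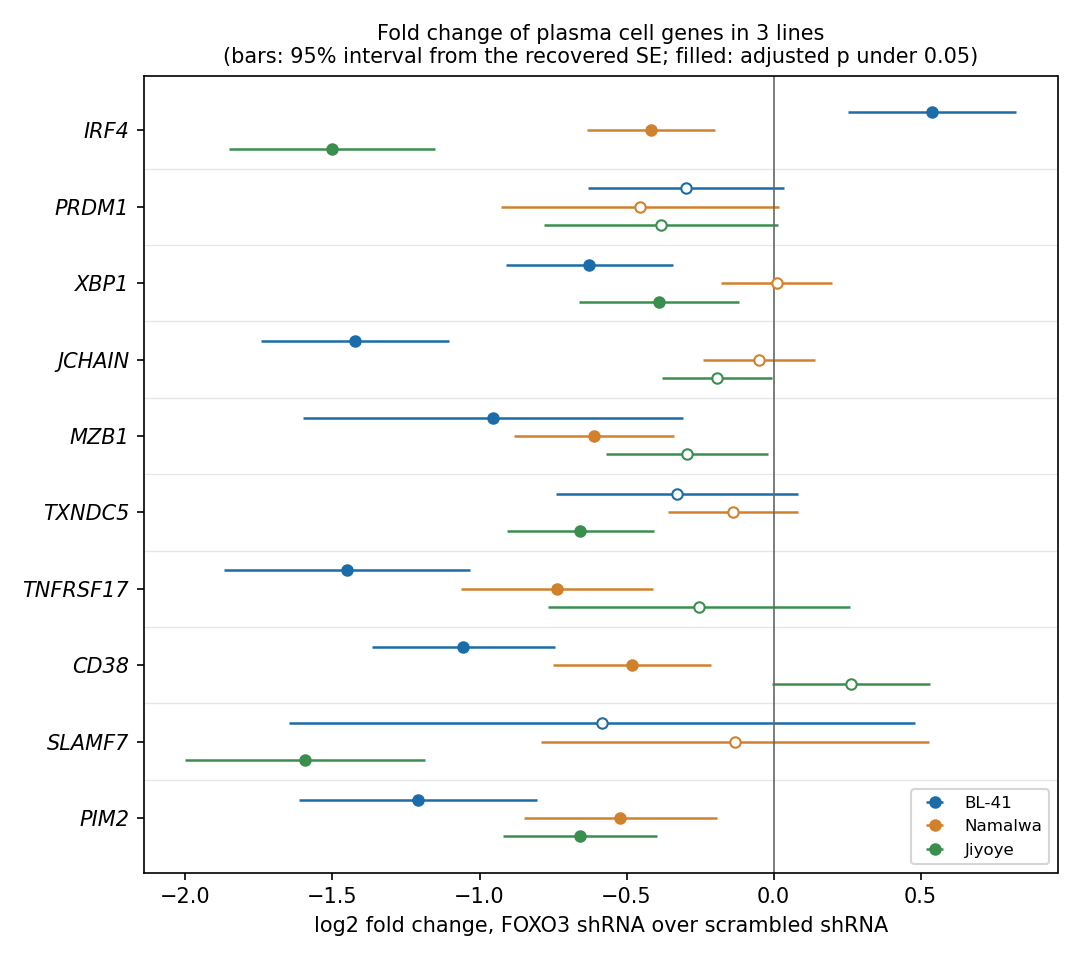
Log2 fold change of FOXO3 shRNA over scrambled shRNA for the 10 genes in the 3 lines, with bars for the 95% interval and filled points for an adjusted p under 0.05 (authors' DESeq2 test). IRF4 lies at 0.54 for BL-41, -0.42 for Namalwa and -1.50 for Jiyoye, and PRDM1 is open in every line.

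The summed level of the members can be read per length, as the arm value over gene length, scaled so that each arm sums to 1000000, the scale of every length-scaled value here. This sum was 1718 with FOXO3 shRNA and 3631 with scrambled shRNA in BL-41. It was 3238 with FOXO3 shRNA and 3649 with scrambled shRNA in Namalwa. It was 2827 with FOXO3 shRNA and 4043 with scrambled shRNA in Jiyoye. JCHAIN makes up much of these sums. Without JCHAIN the sums were 1092 with FOXO3 shRNA and 1846 with scrambled shRNA in BL-41, 918 and 1183 in Namalwa in the same order, and 1351 and 2287 in Jiyoye. Bulk RNA cannot tell fewer cells of a kind from less RNA per cell. In BL-41, 3 of 8 measured myeloid markers also rose, and the summed length-scaled level of the 8 was 37.8 with FOXO3 shRNA and 24.5 with scrambled shRNA. In Namalwa these sums were 9.47 with FOXO3 shRNA and 9.19 with scrambled shRNA, with 0 of 8 called. In Jiyoye the sums were 27.0 with FOXO3 shRNA and 29.7 with scrambled shRNA, and 1 of 8 rose, CD14. Among 8 B cell markers, CD79B, CD22 and BLK fell in BL-41, CD79A and CD79B rose in Jiyoye, and 0 were called in Namalwa. The part of these markers in the results was not tested.

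Among the regulators, IRF4 went opposite ways in different lines. IRF4 (chromosome 6, 391739 to 411443, plus strand, GRCh38) codes for the interferon regulatory factor that germinal centre B cells need to leave for the plasma cell fate. In the authors' deposited table, IRF4 had 5366 with FOXO3 shRNA and 3696 with scrambled shRNA in BL-41 (log2 fold change 0.54, SE 0.15, adjusted p = 0.00157, DESeq2). IRF4 had 2209.6 with FOXO3 shRNA and 2948 with scrambled shRNA in the authors' deposited table for Namalwa (-0.42, SE 0.11, adjusted p = 0.0058, DESeq2). For Jiyoye, the authors' deposited table gave IRF4 3433 with FOXO3 shRNA and 9723 with scrambled shRNA (-1.50, SE 0.18, adjusted p = 1.64e-14, DESeq2). IRF4 thus rose in BL-41 and fell in both other lines. The largest fall was in Jiyoye, where the scrambled value, which is also the base of the fold change, was highest. Per length, IRF4 in Jiyoye ranked 1951 of 16787 genes with FOXO3 shRNA and 519 with scrambled shRNA. In BL-41 it ranked 1178 of 16001 with FOXO3 shRNA and 1798 with scrambled shRNA. The tables were normalized separately for each line, so levels set across lines have no test. With that limit, the length-scaled IRF4 level with FOXO3 shRNA was 107 for BL-41, 47.3 for Namalwa and 71.5 for Jiyoye, and with scrambled shRNA 78.0, 64.8 and 211 in the same order. BL-41 thus stood highest with FOXO3 shRNA, and Jiyoye with scrambled shRNA.

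The difference in response was tested directly. A z test on the difference of the authors' log2 fold changes, with Benjamini-Hochberg adjustment over all genes measured in both lines, called 7.01% of 14789 genes for BL-41 against Namalwa, 6.25% of 15419 for BL-41 against Jiyoye and 2.75% of 14933 for Namalwa against Jiyoye. Of the 10 members, 3 differed in the first pair, 4 in the second and 3 in the last. The deposited fold changes are moderated, and the test makes no allowance for moderation that differs between the lines. IRF4 was among them in every pair, and with each SE multiplied by 1.5 it kept the call for BL-41 against Jiyoye only. Its fold change in BL-41 minus that in Jiyoye was 2.04 (95% interval 1.59 to 2.49, adjusted p = 5.98e-15). The IRF4 value for BL-41 minus Namalwa was 0.95 (0.60 to 1.31, adjusted p = 4.62e-05), and that for Namalwa minus Jiyoye was 1.09 (0.67 to 1.498, adjusted p = 0.000117). Of 14549 genes measured in the 3 lines, 1 was called higher in BL-41 and lower in both Namalwa and Jiyoye, and it was IRF4. That pattern was taken from IRF4 itself and needs a call in each line. For genes called lower in all 3 lines the count was 263, PIM2 among them. The genes whose 3 fold changes lay nearest to those of IRF4, among 8869 others that averaged 100 or more in every line, were STK36, TP53INP2, MRPL1 and HERC2, at distances of 0.53, 0.68, 0.72 and 0.72 on the log2 scale. These distances exceed the SE of each IRF4 fold change, and no test was made of the likeness. TP53INP2 had the signs of IRF4, at 0.43 for BL-41, -0.52 for Namalwa and -0.84 for Jiyoye. STK36 (0.44, -0.14 and -1.06) and HERC2 (0.03, -0.11 and -1.10) did too, and MRPL1 (0.40, 0.16 and -1.09) did not.

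**Figure D3:**
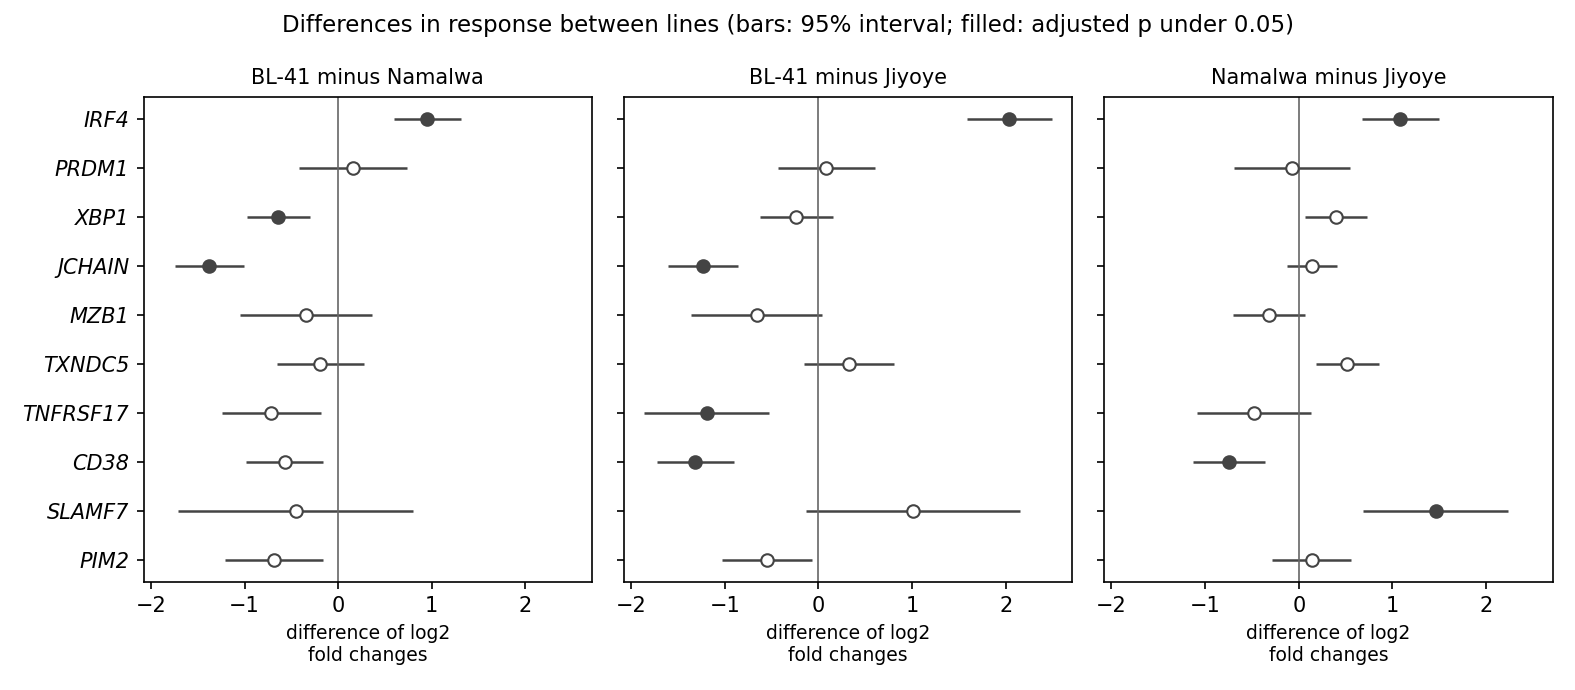
Difference of log2 fold changes between lines for the 10 genes, with bars for the 95% interval and filled points for an adjusted p under 0.05 over all genes of the pair. IRF4 is filled in each pair, at 0.95, 2.04 and 1.09, and JCHAIN lies at -1.37 and -1.23 in the pairs that hold BL-41.

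PRDM1 was not called in any line. PRDM1 (chromosome 6, 105993463 to 106109939, plus strand) codes for BLIMP-1, the repressor that extinguishes B cell genes in plasma cells. In BL-41 the authors' deposited table gave PRDM1 230 with FOXO3 shRNA and 282 with scrambled shRNA (log2 fold change -0.30, 95% interval -0.63 to 0.04, adjusted p = 0.199, DESeq2). PRDM1 was at 99.7 with FOXO3 shRNA and 137 with scrambled shRNA in the authors' deposited table for Namalwa (-0.45, -0.93 to 0.02, adjusted p = 0.321, DESeq2). For Jiyoye, the authors' deposited table gave PRDM1 337 with FOXO3 shRNA and 439 with scrambled shRNA (-0.38, -0.78 to 0.02, adjusted p = 0.204, DESeq2). The values leaned the same way in the 3 lines, and each interval reached 0. No pair of lines passed the test of a difference in PRDM1 (adjusted p from 0.855 to 0.974, z test on the authors' deposited fold changes).

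XBP1 fell in BL-41 and in Jiyoye. XBP1 (chromosome 22, 28794555 to 28800597, minus strand) codes for the factor that switches on the secretory apparatus once its messenger has been spliced by the ER sensor IRE1, the product of ERN1. XBP1 had 7860.4 with FOXO3 shRNA and 12134 with scrambled shRNA in the authors' deposited table for BL-41 (log2 fold change -0.63, SE 0.14, adjusted p = 0.00016, DESeq2). XBP1 in Namalwa was listed in the authors' deposited table at 4845 with FOXO3 shRNA and 4808 with scrambled shRNA (0.01, SE 0.10, adjusted p = 0.98, DESeq2). For XBP1 in Jiyoye the listed values were 3761 with FOXO3 shRNA and 4929 with scrambled shRNA (-0.39, SE 0.14, adjusted p = 0.0323, DESeq2, authors' deposited table). The arms in Namalwa lay within 1 SE of each other. The XBP1 fold change in BL-41 minus that in Namalwa was -0.64 (95% interval -0.98 to -0.30, adjusted p = 0.00889, z test on the authors' deposited fold changes). BL-41 minus Jiyoye was -0.24 (-0.63 to 0.16, adjusted p = 0.603) and Namalwa minus Jiyoye was 0.40 (0.07 to 0.73, adjusted p = 0.226), neither past the test. The counted reads do not separate spliced from unspliced XBP1.

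Among the genes of antibody assembly, JCHAIN fell in BL-41, MZB1 in BL-41 and Namalwa, and TXNDC5 in Jiyoye. JCHAIN (chromosome 4, 70655541 to 70681817, minus strand) codes for the joining chain that links IgM or IgA units into polymers. The authors' deposited table for BL-41 gave JCHAIN 8352 with FOXO3 shRNA and 22417 with scrambled shRNA (log2 fold change -1.42, SE 0.16, adjusted p = 5.45e-16, DESeq2). JCHAIN stood at 28750.0 with FOXO3 shRNA and 29752 with scrambled shRNA in Namalwa in the authors' deposited table (-0.05, SE 0.10, adjusted p = 0.865, DESeq2). For Jiyoye the authors' deposited table gave JCHAIN 18778 with FOXO3 shRNA and 21466 with scrambled shRNA (-0.19, SE 0.10, adjusted p = 0.164, DESeq2). JCHAIN was therefore 2.68-fold lower in BL-41 and not called elsewhere. Per length it was among the most abundant messengers of these cells, at rank 145 with FOXO3 shRNA and 90 with scrambled shRNA of 16001 genes in BL-41, and at ranks 73 and 70 of 15365 in Namalwa in the same order. The fold change of JCHAIN in BL-41 minus that in Namalwa was -1.37 (95% interval -1.75 to -1.003, adjusted p = 9.26e-10, z test on the authors' deposited fold changes), and BL-41 minus Jiyoye was -1.23 (-1.60 to -0.86, adjusted p = 5.58e-08). Namalwa minus Jiyoye was 0.14 (-0.12 to 0.41, adjusted p = 0.766). With FOXO3 shRNA the length-scaled JCHAIN levels of the lines spread over 3.70-fold, and with scrambled shRNA over 1.40-fold, a comparison across separately normalized tables with no test.

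MZB1 fell in BL-41 and Namalwa. MZB1 (chromosome 5, 139387467 to 139390081, minus strand) codes for an ER chaperone that helps assemble and secrete IgM. In BL-41 MZB1 had 1632 with FOXO3 shRNA and 3163 with scrambled shRNA in the authors' deposited table (log2 fold change -0.95, SE 0.33, adjusted p = 0.0165, DESeq2). In Namalwa MZB1 had 1506 with FOXO3 shRNA and 2301 with scrambled shRNA in the authors' deposited table (-0.61, SE 0.14, adjusted p = 0.000713, DESeq2). In Jiyoye MZB1 had 1127 with FOXO3 shRNA and 1383 with scrambled shRNA in the authors' deposited table (-0.30, SE 0.14, adjusted p = 0.139, DESeq2). The larger fold change, in BL-41, came with the larger SE. No pair of lines passed the test of a difference in MZB1 (adjusted p from 0.308 to 0.693, z test on the authors' deposited fold changes).

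TXNDC5 fell in Jiyoye, the line where it was highest. TXNDC5 (chromosome 6, 7881517 to 7910788, minus strand) codes for a disulfide isomerase that folds secreted proteins in the ER. The authors' deposited table for BL-41 gave TXNDC5 4771 with FOXO3 shRNA and 5992 with scrambled shRNA (log2 fold change -0.33, SE 0.21, adjusted p = 0.264, DESeq2). TXNDC5 stood at 3630.1 with FOXO3 shRNA and 3993 with scrambled shRNA in the authors' deposited table for Namalwa (-0.14, SE 0.11, adjusted p = 0.653, DESeq2). For Jiyoye the authors' deposited table gave TXNDC5 12747 with FOXO3 shRNA and 20101 with scrambled shRNA (-0.66, SE 0.13, adjusted p = 9.36e-06, DESeq2). No pair of lines passed the test of a difference in TXNDC5, and the nearest to the threshold was Namalwa minus Jiyoye at 0.52 (95% interval 0.19 to 0.85, adjusted p = 0.068, z test on the authors' deposited fold changes). A readthrough gene, BLOC1S5-TXNDC5, shares 2658 of the 4361 exon bases of TXNDC5 on the same strand (GENCODE 44) and is not analysed here, so the counts of TXNDC5 are uncertain to that extent.

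Among the surface proteins, TNFRSF17 and CD38 fell in BL-41 and Namalwa, and SLAMF7 in Jiyoye. TNFRSF17 (chromosome 16, 11965210 to 11968068, plus strand) codes for BCMA, the receptor for the cytokines APRIL and BAFF that keeps plasma cells alive. TNFRSF17 had 180.5 with FOXO3 shRNA and 493 with scrambled shRNA in the authors' deposited table for BL-41 (log2 fold change -1.45, SE 0.21, adjusted p = 6.57e-10, DESeq2). The authors' deposited table for Namalwa gave TNFRSF17 197 with FOXO3 shRNA and 329 with scrambled shRNA (-0.74, SE 0.17, adjusted p = 0.000623, DESeq2). That for Jiyoye gave TNFRSF17 133 with FOXO3 shRNA and 159 with scrambled shRNA (-0.25, SE 0.26, adjusted p = 0.63, DESeq2, authors' deposited table). The fold changes followed the order of the scrambled levels, with the lowest value and the smallest change in Jiyoye. The scrambled value is also the base of the fold change, so this order is not a separate result. BL-41 minus Jiyoye was -1.20 (95% interval -1.86 to -0.53, adjusted p = 0.013, z test on the authors' deposited fold changes), while BL-41 minus Namalwa was -0.71 (-1.24 to -0.18, adjusted p = 0.0882) and did not pass.

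CD38 (chromosome 4, 15778275 to 15853232, plus strand) codes for an ectoenzyme that splits NAD and is found at high levels on germinal centre and plasma cells. CD38 stood at 1559.6 with FOXO3 shRNA and 3240.2 with scrambled shRNA in the authors' deposited table for BL-41 (log2 fold change -1.05, SE 0.16, adjusted p = 1.52e-09, DESeq2). The authors' deposited table for Namalwa gave CD38 4211 with FOXO3 shRNA and 5882 with scrambled shRNA (-0.48, SE 0.14, adjusted p = 0.0122, DESeq2). The Jiyoye values of CD38 in the authors' deposited table were 895 with FOXO3 shRNA and 746 with scrambled shRNA (0.26, SE 0.14, adjusted p = 0.196, DESeq2). CD38 was thus called lower in BL-41 and Namalwa, and the Jiyoye arms, at the lowest level, were not called apart. The fold change of CD38 in BL-41 minus that in Jiyoye was -1.32 (95% interval -1.73 to -0.91, adjusted p = 2.16e-07, z test on the authors' deposited fold changes), and Namalwa minus Jiyoye was -0.74 (-1.12 to -0.36, adjusted p = 0.0103). BL-41 minus Namalwa was -0.57 (-0.98 to -0.16, adjusted p = 0.0733).

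SLAMF7 (chromosome 1, 160739057 to 160754821, plus strand) codes for CS1, a receptor of the SLAM family and a target of antibody therapy in myeloma. Its level set Jiyoye apart. SLAMF7 had 6.87 with FOXO3 shRNA and 10.3 with scrambled shRNA in the authors' deposited table for BL-41 (log2 fold change -0.59, SE 0.54, adjusted p = 0.503, DESeq2). In the Namalwa table that the authors deposited, SLAMF7 had 77.1 with FOXO3 shRNA and 84.4 with scrambled shRNA (-0.13, SE 0.34, adjusted p = 0.902, DESeq2). SLAMF7 in Jiyoye had 1842 with FOXO3 shRNA and 5556 with scrambled shRNA in the authors' deposited table (-1.59, SE 0.21, adjusted p = 4.36e-12, DESeq2). The arm values passed 100 in Jiyoye alone, and there the gene was 3.02-fold lower, the largest fall of any member in that line. For Namalwa minus Jiyoye the difference of SLAMF7 fold changes was 1.46 (95% interval 0.69 to 2.24, adjusted p = 0.0147, z test on the authors' deposited fold changes). BL-41 minus Jiyoye was 1.01 (-0.13 to 2.15, adjusted p = 0.353), with a wide interval at the low values of BL-41.

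PIM2 was the member called lower in every line, though other members also had fold changes below 0 in each line. PIM2 (chromosome X, 48913182 to 48919024, minus strand) codes for a serine/threonine kinase that holds back cell death and is abundant in myeloma. PIM2 had 2090.5 with FOXO3 shRNA and 4833 with scrambled shRNA in the authors' deposited table for BL-41 (log2 fold change -1.21, SE 0.21, adjusted p = 1.37e-07, DESeq2). PIM2 in Namalwa had 2204 with FOXO3 shRNA and 3164 with scrambled shRNA in the authors' deposited table (-0.52, SE 0.17, adjusted p = 0.0343, DESeq2). PIM2 in Jiyoye had 6270.2 with FOXO3 shRNA and 9896 with scrambled shRNA in the authors' deposited table (-0.66, SE 0.13, adjusted p = 2.62e-05, DESeq2). No pair of lines passed the test of a difference in PIM2, with BL-41 minus Namalwa at -0.69 (95% interval -1.21 to -0.17, adjusted p = 0.0964), BL-41 minus Jiyoye at -0.55 (-1.03 to -0.07, adjusted p = 0.18) and Namalwa minus Jiyoye at 0.14 (-0.28 to 0.56, adjusted p = 0.891), all by the z test on the authors' deposited fold changes. Its relative PIM3 moved the other way. PIM3 in the authors' deposited table was 2019 with FOXO3 shRNA and 1374 with scrambled shRNA in BL-41 (0.56, adjusted p = 0.00134, DESeq2) and 2921 with FOXO3 shRNA and 1699 with scrambled shRNA in Jiyoye (0.78, adjusted p = 1.32e-05, DESeq2). PIM3 was not called in Namalwa (0.21, adjusted p = 0.266, DESeq2, authors' deposited table). PIM1 was not called in any line, with log2 fold changes of -0.73, -0.43 and -0.25 in BL-41, Namalwa and Jiyoye in the authors' deposited tables (adjusted p of 0.145, 0.227 and 0.556, DESeq2). Of the 10 PIM kinases and survival genes, PIM2 included, 2 fell and 1 rose in BL-41, 1 fell in Namalwa, and 3 fell and 3 rose in Jiyoye (medians -0.10, -0.17 and -0.06). Of all genes, 28.7%, 6.41% and 17.4% were called in the same order.

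Genes around the members were read from 10 lists, in which those listed for a family include the member itself. They are described by counts and medians, with no test of a list, and nothing particular to a list is read from them. Over all genes tested, 14.2% fell and 14.5% rose in BL-41, 3.81% fell and 2.6% rose in Namalwa, and 8.7% fell and 8.69% rose in Jiyoye, with medians of 0.02, -0.0011 and 0.0084. Among genes averaging 100 or more over the arms, the shares called were 43.9%, 11.2% and 29.1%. Of 20 other genes of the plasma cell programme, 8 fell and 3 rose in BL-41, 4 fell and 0 rose in Namalwa, and 3 fell and 2 rose in Jiyoye by the authors' DESeq2 test (median log2 fold changes 0.03, -0.10 and -0.08). The 4 smallest adjusted p in BL-41 belonged to POU2AF1, a coactivator of antibody genes, FCRL5, an Fc receptor-like protein, TNFRSF13B, the receptor TACI, and ITM2C. Their log2 fold changes in BL-41 were -1.05, -1.35, -1.12 and 0.59, as the authors deposited them (DESeq2 adjusted p between 2.72e-09 and 0.000253). POU2AF1 also fell in Jiyoye, by 0.74 on the log2 scale, and FCRL5 in Namalwa, by 0.71, in the authors' deposited tables (adjusted p of 6.03e-06 and 0.000583, DESeq2). FKBP11, a folding enzyme of the secretory pathway, fell in the 3 lines, by 1.02 for BL-41, 0.53 for Namalwa and 0.60 for Jiyoye on the log2 scale in the authors' deposited tables (adjusted p of 0.0005, 0.0423 and 0.016, DESeq2).

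Of 23 secretory genes linked to XBP1, 5 fell and 1 rose in BL-41, 1 fell and 0 rose in Namalwa, and 2 fell and 2 rose in Jiyoye by the authors' DESeq2 test (median log2 fold changes -0.35, -0.12 and -0.14). These 6, 1 and 4 called genes of 23 stand beside 28.7%, 6.41% and 17.4% of all genes. In BL-41 the sensors ERN1 and ATF6 fell by 1.05 and 0.68 on the log2 scale in the authors' deposited table, beside the fall of XBP1 (adjusted p of 7.87e-07 and 6.49e-08, DESeq2). The ER degradation genes SYVN1 and EDEM1 fell there by 0.45 and 0.35, as the authors deposited them (adjusted p of 0.00147 and 0.00317, DESeq2). ATF6 also fell in Jiyoye, by 0.33 (adjusted p = 0.0415, DESeq2, authors' deposited table), where SYVN1 rose by 0.42 (adjusted p = 0.0173). The abundant chaperones HSPA5 and HSP90B1 were not called in any line, and in BL-41 their SE of 0.47 and 0.40 were wide against a median SE of 0.144 for genes averaging 100 or more. Of 16 disulfide isomerase genes, TXNDC5 included, 3 fell and 1 rose in BL-41, 1 of 15 measured fell in Namalwa, and 3 of 15 fell and 2 rose in Jiyoye by the authors' DESeq2 test (medians -0.20, -0.06 and -0.05). PDIA5 fell in the 3 lines, by 0.98 for BL-41, 0.50 for Namalwa and 0.62 for Jiyoye on the log2 scale in the authors' deposited tables (adjusted p of 0.000361, 0.00624 and 0.017, DESeq2).

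**Figure D4:**
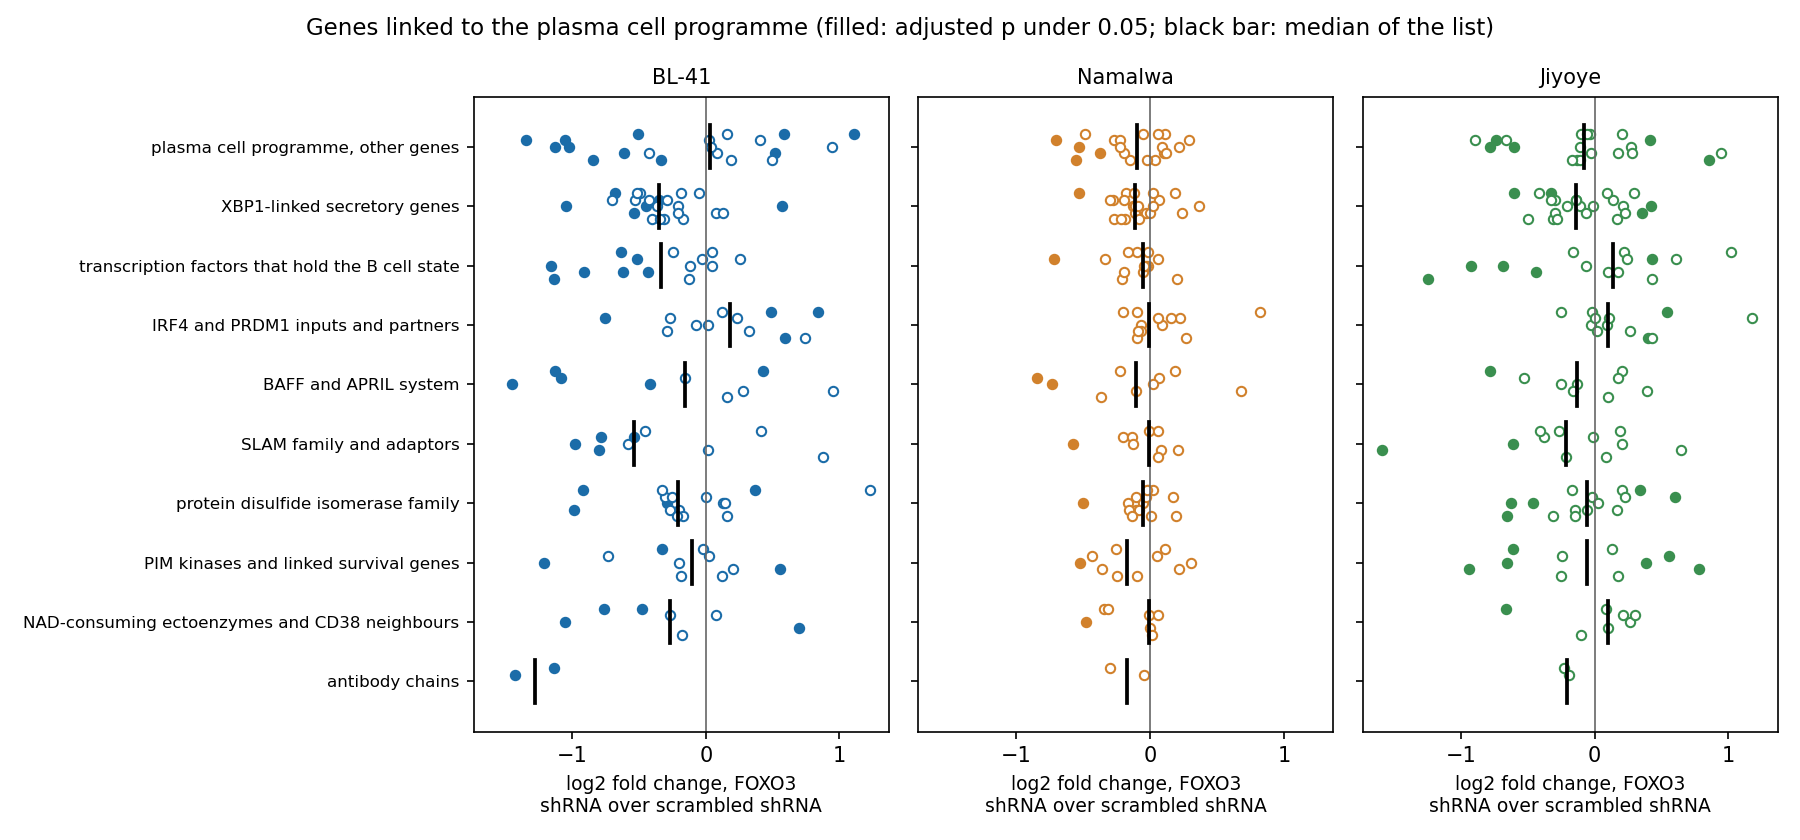
Log2 fold change of FOXO3 shRNA over scrambled shRNA for the genes of 10 lists in BL-41, Namalwa and Jiyoye, with a point per gene, filled for an adjusted p under 0.05 (authors' DESeq2 test), and a black bar at the median of the list. The medians of the SLAM family list lie at -0.54, -0.01 and -0.22, and the antibody chain list holds JCHAIN and IGLL5 only.

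The receptors for BAFF and APRIL were each called lower in BL-41. TNFRSF13B (TACI) had 104 with FOXO3 shRNA and 226 with scrambled shRNA, and TNFRSF13C (BAFF receptor) 153 with FOXO3 shRNA and 323 with scrambled shRNA, in the authors' deposited table for BL-41 (log2 fold changes -1.12 and -1.08, adjusted p of 2.12e-05 and 1.64e-05, DESeq2), beside TNFRSF17. In Namalwa TNFRSF13C fell by 0.84 on the log2 scale, and in Jiyoye TNFRSF13B by 0.78, in the authors' deposited tables (adjusted p of 2.43e-06 and 0.000277, DESeq2). Of the 9 genes of this system, TNFRSF17 included, 4 fell and 1 rose in BL-41, 2 fell in Namalwa and 1 fell in Jiyoye (medians -0.16, -0.11 and -0.13). The ligand TNFSF13B stood at no more than 15.4 in any arm of the authors' deposited tables.

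Of the SLAM receptors besides SLAMF7, CD84 fell in the 3 lines, and others in BL-41. In BL-41, CD84, SLAMF6, LY9 and CD48 fell by 0.98, 0.78, 0.80 and 0.54 on the log2 scale, as the authors deposited them (DESeq2 adjusted p between 3.09e-10 and 0.000717). These were 4 of 9 measured genes of the SLAM family and its adaptors, with 0 rising. In Namalwa 1 of 9 fell, CD84, and in Jiyoye 2 of 11 fell, SLAMF7 and CD84 (medians -0.54, -0.01 and -0.22). The fall of CD84 was by 0.98 for BL-41, 0.57 for Namalwa and 0.61 for Jiyoye on the log2 scale in the authors' deposited tables (adjusted p of 3.09e-10, 9.03e-08 and 0.0016, DESeq2). Of 7 enzymes of NAD and adenosine turnover, CD38 included, 3 fell and 1 rose in BL-41, 1 fell in Namalwa and 1 fell in Jiyoye. BST1, the close relative of CD38, was at most 6.19 in any arm of the authors' deposited tables. The antibody list could be read only for JCHAIN and IGLL5, which codes for an immunoglobulin lambda-like protein. IGLL5 had 5339 with FOXO3 shRNA and 11703 with scrambled shRNA in the authors' deposited table for BL-41 (log2 fold change -1.13, adjusted p = 3.25e-08, DESeq2) and was not called in Namalwa (-0.30, adjusted p = 0.101) or Jiyoye (-0.23, adjusted p = 0.389).

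Of 14 transcription factors of the B cell state, 7 fell and 0 rose in BL-41, 1 of 13 measured fell in Namalwa, and 4 fell and 1 rose in Jiyoye by the authors' DESeq2 test (medians -0.34, -0.06 and 0.14). The Jiyoye median takes in low genes. EBF1 had 2.82 with FOXO3 shRNA and 2.49 with scrambled shRNA there, and BACH2 12.4 and 6.13 in the same order (authors' deposited table). PAX5 and BCL6, which PRDM1 is known to repress, were not called in any line. PAX5 had log2 fold changes of -0.24, 0.20 and -0.16, and BCL6 of 0.26, -0.34 and 0.61, in BL-41, Namalwa and Jiyoye in the authors' deposited tables (adjusted p from 0.0507 to 0.515, DESeq2). SPIB, an ETS partner of IRF4, fell in the 3 lines, by 1.15 for BL-41, 0.72 for Namalwa and 0.69 for Jiyoye on the log2 scale in the authors' deposited tables (adjusted p of 3.72e-12, 0.000182 and 0.00242, DESeq2). ETS1, another ETS factor, fell by 1.13 in BL-41 and 1.25 in Jiyoye in the authors' deposited tables (adjusted p of 5.01e-13 and 4.23e-14, DESeq2). In BL-41, IRF8 fell by 0.91 and EBF1 by 0.62 (adjusted p of 9.84e-08 and 4.12e-05, DESeq2, authors' deposited table). In Jiyoye, IKZF3 fell by 0.92 and IKZF1 rose by 0.43 (adjusted p of 4.44e-09 and 0.00235, DESeq2, authors' deposited table). Of 12 inputs and partners of IRF4 and PRDM1, 3 rose and 1 fell in BL-41, none was called in Namalwa and 2 rose in Jiyoye. The gene that fell in BL-41 was MYC, at 3962 with FOXO3 shRNA and 6674 with scrambled shRNA (log2 fold change -0.75, adjusted p = 0.000131, DESeq2, authors' deposited table). JUNB rose there by 0.49 (adjusted p = 0.00118, DESeq2, authors' deposited table). RELA, an NF-kB subunit, rose by 0.60 and 0.40, and BATF, a partner of IRF4, by 0.84 and 0.54, in BL-41 and Jiyoye in the authors' deposited tables (adjusted p from 1.02e-05 to 0.0236, DESeq2). In Namalwa RELA and BATF had 0.27 and 0.82, not called, in the authors' deposited table (adjusted p of 0.0719 and 0.282, DESeq2). BATF was low there, at 9.91 with FOXO3 shRNA and 5.61 with scrambled shRNA. The part of MYC, JUNB, RELA and BATF in the changes of IRF4 was not tested.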

How the data were processed

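The 18 libraries fall into 6 groups of 3. The series' design text names SOAPnuke as the read filter, and the submitters' processing notes list Bowtie2, RSEM, DESeq2 and hg38, with versions not given in the sources used here. Per the file headers, each line has a table with a signal value for each arm, a gene length and no value per library. These deposited arm values appear scaled for library size, and their ratio equalled the moderated log2 fold change (FOXO3 shRNA over scrambled shRNA) that the authors deposited beside them (largest difference 1.39e-14). Moderation understates changes of low genes, and may do so to unlike degrees in the 3 tables, which were normalized separately. The arm values of a gene carry that moderation, so they may differ from the mean counts of the arms, most of all for low genes. Each deposited p-value comes from the authors' DESeq2 test, and Benjamini-Hochberg adjustment over each table gave the deposited adjusted p (largest difference 3.56e-15). A count test per library, planned first, could not be run, and depth per library is unknown.

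The SE was recovered as the size of the fold change divided by the normal quantile that matches its p. Differences between lines were tested with a two-sided z test, genes matched by Entrez ID, adjusted over all genes of the pair. The test takes the moderated fold changes and the recovered SE as they stand. The procedure was also run on simulated fold changes drawn with that same SE. Such a run cannot check whether the SE is right or how moderation differs between the lines. Length-scaled levels are arm values divided by gene length and scaled to a sum of 1000000 per arm. Positions are from GENCODE 44 (GRCh38). The members, lists and tests were chosen with earlier results of these data known. Named are the members in each line, the 4 genes nearest IRF4, and FOXO3. Of the called list genes with the 4 smallest adjusted p per line or tied to a member, some are named and others are not. The named list genes are therefore a selection. Relatives and opposing factors named although not called (PIM1, BST1, PAX5, BCL6, HSPA5, HSP90B1, TNFSF13B), the overlapping gene ATG5 and the marker genes were chosen after their values were seen. Other thresholds, adjustments, centring, filters and SE sizes were tried. The strand setting of the counting is not given in the sources used here. Software was Python 3.11.15 with pandas 2.3.3, numpy 2.4.6, matplotlib 3.10.9 and scipy 1.17.1.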

Additional observations from a re-analysis of the deposited data

Results flagged for a closer look

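Fold changes of FOXO3 shRNA over scrambled shRNA that passed the test of a difference between lines are listed here on the log2 scale, computed from the authors' deposited tables. IRF4 differed in each pair, by 0.95 for BL-41 minus Namalwa, 2.04 for BL-41 minus Jiyoye and 1.09 for Namalwa minus Jiyoye. JCHAIN differed by -1.37 for BL-41 minus Namalwa and by -1.23 for BL-41 minus Jiyoye. CD38 differed by -1.32 for BL-41 minus Jiyoye and by -0.74 for Namalwa minus Jiyoye. TNFRSF17 differed by -1.20 for BL-41 minus Jiyoye, XBP1 by -0.64 for BL-41 minus Namalwa, and SLAMF7 by 1.46 for Namalwa minus Jiyoye. FOXO3 itself differed between Namalwa and Jiyoye by -0.80 (adjusted p = 0.0174), and its part in these differences was not tested.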

How the results depend on the processing

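Each of the 30 fold changes of the members kept its sign and its side of the threshold when centred. Centring used the median of genes averaging 100 or more, a shift of at most 0.0044. A pseudocount of 1 added to both arm values cannot change a sign, and changed none. A change of 1 or more on the log2 scale was also required in another setting. The members called then numbered 4 for BL-41, 0 for Namalwa and 2 for Jiyoye, in place of 7, 5 and 5 by DESeq2. No call in Namalwa thus had a moderated change of that size. At an adjusted p under 0.01 the count in Namalwa was 3, and with Benjamini-Yekutieli adjustment 2. For Namalwa minus Jiyoye, the members whose fold changes differed numbered 1 at an adjusted p under 0.01 and 0 with each SE multiplied by 1.5 (4 at an unadjusted p under 0.05 in that z test), in place of 3. For BL-41 minus Namalwa they numbered 1 with the wider SE, in place of 3. These settings are stricter by construction. The other settings left the counts within 1.5 times. No paired analysis was possible because the tables hold no value per library, and for the same reason no replicate could be left out and no other count model or normalization was run. The calls lost with the wider SE include IRF4, whose adjusted p was then 0.125 for BL-41 minus Namalwa and 0.278 for Namalwa minus Jiyoye. SLAMF7 had low arm values in BL-41 and Namalwa, with SE of 0.54 and 0.34, and moderation may understate its fold changes there.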

Other observations

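The gene length in the authors' deposited tables differed between lines for PRDM1 and SLAMF7. For BL-41, Namalwa and Jiyoye it was 4975, 5135 and 5014 bases for PRDM1, and 2363, 2599 and 2677 bases for SLAMF7. For IRF4, XBP1 and TXNDC5 it differed by 1 base, and JCHAIN, CD38, TNFRSF17, MZB1 and PIM2 had the same length in each table. ATG5, an autophagy gene that overlaps PRDM1 on the opposite strand with 0 shared exon bases (GENCODE 44), rose in BL-41 and Jiyoye, by 0.60 and 0.52 on the log2 scale in the authors' deposited tables (adjusted p of 0.000254 and 0.0031, DESeq2), and was not called in Namalwa (0.26, adjusted p = 0.283).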
